A study of Arabidopsis thaliana with 4 samples.

Results

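The block described here lies on chromosome 2 at chr2:3400001-3750000, beside the centromere, and holds a nuclear copy of mitochondrial DNA. It was chosen by its depth in these libraries. Its members were all 100 bp bins with a mean of at least 4 calls per listed cytosine in all 4 libraries: 1647 of the 3500 bins of the block, out of 409734 nuclear bins covered in the same way. The members hold 12516 CG, 12633 CHG and 49348 CHH cytosines (H is A, C or T). The 4 enzymatic methyl-seq libraries came from leaves of 6-week-old Columbia (Col-0) plants, 1 library for each genotype: ccr4a ccr4b ddm1 rdr2, ddm1 rdr2, ccr4a ccr4b and wild type (WT). Alleles were not given in the labels used here. Because no genotype had a replicate, the intervals below cover counting error only, and no difference was tested between genotypes. Coordinates follow the reference that the deposited files use, called ColCEN in their names, and no gene annotation of that build was used here.

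Plant nuclear genomes take up pieces of organelle DNA, and Arabidopsis thaliana carries a long stretch of mitochondrial DNA near the centromere of chromosome 2. Pericentromeric sequence in this plant is methylated in all contexts: MET1 copies CG methylation, CMT3 and CMT2 act on CHG and CHH, and the RNA-directed pathway, in which RDR2 makes the double-stranded RNA precursor of small RNAs, adds methylation in all of them. DDM1 is a chromatin remodeller that gives the methyltransferases access to heterochromatin, and CCR4a and CCR4b are deadenylases of the CCR4-NOT complex, which shortens the poly(A) tails of RNA. Mitochondria have many genome copies per cell and plant organelle DNA is taken to be largely unmethylated. A read from the organelle and a read from the nuclear copy can be told apart only where the copies differ. A level measured here can therefore mix calls from both.

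The letters of chromosome 2 and of the mitochondrial contig were rebuilt from the listed cytosines and their trinucleotides, which fix every C and G and part of the A and T. Words of 50 letters, with A and T not told apart, were then looked up in the contig. Sequence shared with the contig ran from chr2:3360554 to chr2:3730448, 369.9 kb in all, of which 330.4 kb lies in the block, and 91.3% of the bins of the block had at least 50% of their words in the contig. Outside the block the share was at most 0.0117% of bins on each of chromosomes 1, 3, 4 and 5. Among the member bins, 1478 (89.7%) shared at least 50% of their words, 108 shared fewer but lay within that stretch, and 61 lay beyond its last base. Chromosome 2 outside the block had 396 such bins (0.181%). Words found once in the contig placed 352.9 kb of the shared stretch in 8 segments of 2.66 to 68.5 kb. Of these segments, 4 ran in the direction of the contig and 4 opposite to it, and the rest of the stretch was not assigned. The segment at chr2:3520096-3588630 runs opposite to the contig and the next one, at chr2:3588659-3656058, runs in the same direction.

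Within the shared part of the block 224 places lay outside the shared words, of which 132 were single bases and the longest spanned 358 bases. A further 41 differences were A against T, among 110687 letters that could be compared. Differences had a direction. At 66 places the contig had C or G where chromosome 2 had A or T, and at 25 places chromosome 2 had C or G where the contig had A or T. Of the 66 contig letters 20 (30.3%) stood in CG, a context that held 16.6% of all aligned C and G letters of the contig. The A or T was not resolved at 17 of the 66 places and at 20 of the 25. Among the places with both letters resolved, 43 read C-to-T or G-to-A from the contig to chromosome 2, and 4 read the other way. Because the unresolved shares were so unequal, these last 2 counts cannot be set against each other.

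Reads from the copies can be told apart only where the copies differ, but not every difference need separate every read. Unmethylated cytosines are converted in this assay, so a C-to-T or G-to-A difference may be hidden in some reads that cover it. Which differences a read could be placed by was not tested. The pairs printed here show some of the differences in the regions described below. Both copies are written on the forward strand of chromosome 2 with the differing letter in capitals, and each change is given as the letter on chromosome 2, its position from the left end, and the letter of the contig. The first pair, with change T7C, lies at chr2:3683015-3683040 in the longest run of bins with a WT CG level of at least 50%.
Chromosome 2, methylated run: aaggtgTcggacgtcatccgcaacgt
Contig, methylated run: aaggtgCcggacgtcatccgcaacgt
The second pair, with change A2G, lies at chr2:3588951-3588981 in the run of bins with the most CG losses called in ddm1 rdr2. The contig has a CG site there that chromosome 2 lacks.
Chromosome 2, run of CG losses: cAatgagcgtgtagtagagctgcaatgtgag
Contig, run of CG losses: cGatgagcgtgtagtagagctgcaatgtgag
The third pair, with change T6C at chr2:3580083-3580147, is the longest fully resolved stretch with a difference in any bin with a WT CG level of at least 50%.
Chromosome 2, methylated bins: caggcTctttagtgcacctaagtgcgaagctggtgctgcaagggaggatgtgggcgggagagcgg
Contig, methylated bins: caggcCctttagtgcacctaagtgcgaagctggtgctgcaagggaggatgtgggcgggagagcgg
The fourth pair, with changes A15T and A16T at chr2:3464668-3464730, is the longest such stretch in bins with a WT CG level under 50%.
Chromosome 2, bins of low level: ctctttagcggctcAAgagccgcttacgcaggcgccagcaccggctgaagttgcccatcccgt
Contig, bins of low level: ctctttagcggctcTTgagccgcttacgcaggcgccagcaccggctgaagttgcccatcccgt
The fifth pair, with change T6C at chr2:3531724-3531734, lies in the longest run of bins under 50%.
Chromosome 2, longest low run: aagcaTtgtgg
Contig, longest low run: aagcaCtgtgg
The sixth pair, with change A8T at chr2:3480788-3480803, lies in the run with the most CHH losses called in ddm1 rdr2.
Chromosome 2, run of CHH losses: ccctactActttgttg
Contig, run of CHH losses: ccctactTctttgttg

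Member bins were deep in all libraries, as the rule requires. They had 199 calls per cytosine in ccr4a ccr4b ddm1 rdr2, 232 in ddm1 rdr2, 223 in ccr4a ccr4b and 206 in WT. Relative to bins of the chromosome arms with the same GC content, to which no depth limit was applied, that was 6.48, 7.22, 8.34 and 6.62 times the depth, in the same order of libraries. All 3500 bins of the block, also with no limit, had 3.34, 3.76, 4.50 and 3.45 times the depth of like arm bins. The block held 0.324% of the nuclear cytosines and took 1.90%, 2.33%, 2.91% and 1.99% of the nuclear calls, which numbered between 574097022 and 785451909 per library. The 1853 bins that failed the limit had 0.0516, 0.0389, 0.0232 and 0.0393 times that depth, which the rule fixed to be low. The median GC content was 45% in member bins and 43% in the others. The members formed 170 runs of adjacent bins, the longest of 57 bins. The bin nearest above the limit had 4.02 calls per cytosine in its shallowest library, and the nearest below had 3.98.

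Calls gathered close to places where chromosome 2 and the contig differ. Cytosines within 50 bp of such a place had 365 calls each in WT and 417 in ccr4a ccr4b, and 94.1% and 93.5% of them had at least 4 calls. The CG level of these cytosines was 15.2% in WT and 14.8% in ccr4a ccr4b, so most CG calls close to a difference were unmethylated. Whether those calls came from the organelle was not tested. Between 200 and 300 bp away the depth was 87.2 calls in WT and 94.8 in ccr4a ccr4b. Beyond 2000 bp, 24.2% of the cytosines in WT and 22.6% in ccr4a ccr4b had at least 4 calls. Bins of the shared part that were not members held 0.0233 such places per kb, while members with a WT CG level under 50% held 1.56 and members at or above 50% held 2.66. How reads with several possible positions were handled is not given in the sources used here.

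**Figure D1:**
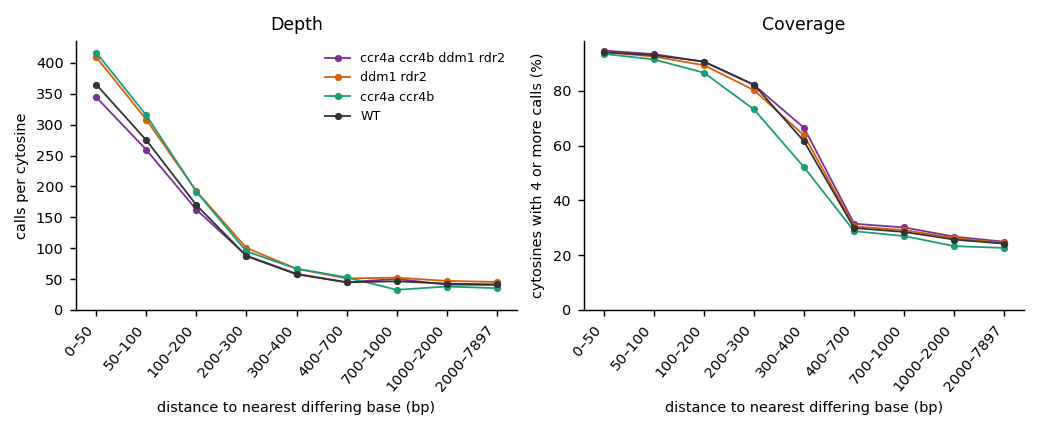
Mean calls per cytosine (left) and the percentage of cytosines with 4 or more calls (right) in the block, against the distance in bp to the nearest base known to differ from the mitochondrial contig, 1 line per library. In WT the depth is 365 calls within 50 bp and 41.5 beyond 2000 bp, and the other 3 libraries fall over the same distances.

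Taken over all members, methylation was low in every genotype. The CG level was 0.407% in ccr4a ccr4b ddm1 rdr2, 0.444% in ddm1 rdr2, 14.7% in ccr4a ccr4b and 15.5% in WT. CHG levels were 0.294%, 0.387%, 7.24% and 7.41%, and CHH levels were 0.165%, 0.284%, 1.52% and 2.12%, in the same order. The nuclear sequence just outside was far more methylated: in WT the CG level was 80.1% in the 50 kb to the left of the shared stretch and 80.5% in the 50 kb to the right of the block. The low level of the members came with an excess of unmethylated calls, since a CG cytosine of a member bin in WT had 36.2 methylated and 198 unmethylated calls, against 52.1 and 13.0 in the left flank.

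WT bins fell into separate classes. Among the 1366 member bins in shared sequence with at least 4 CG cytosines, 1189 (87.0%) had a WT CG level under 50% and 177 (13.0%) had 50% or more. The middle was thinly filled, with 26 bins from 40% to 50% and 19 bins from 50% to 60%, against 423 bins from 10% to 20% and 73 bins from 70% to 80%. In all, 1096 bins (80.2%) were under 30% and 158 were at 60% or more. Levels in ccr4a ccr4b, which were not used to split the bins, kept most of the split: 164 of the 177 bins were at 50% or more there too, and 15 of the 1189 were. Unmethylated calls outnumbered methylated ones in most bins of the insertion. In WT a CG cytosine had 39.3 methylated and 233 unmethylated calls in bins under 50%, and 21.9 methylated and 7.27 unmethylated calls in the others. In ddm1 rdr2 the median of the same 1366 bins was 0.263%, and the highest of them was at 22.0%.

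**Figure D2:**
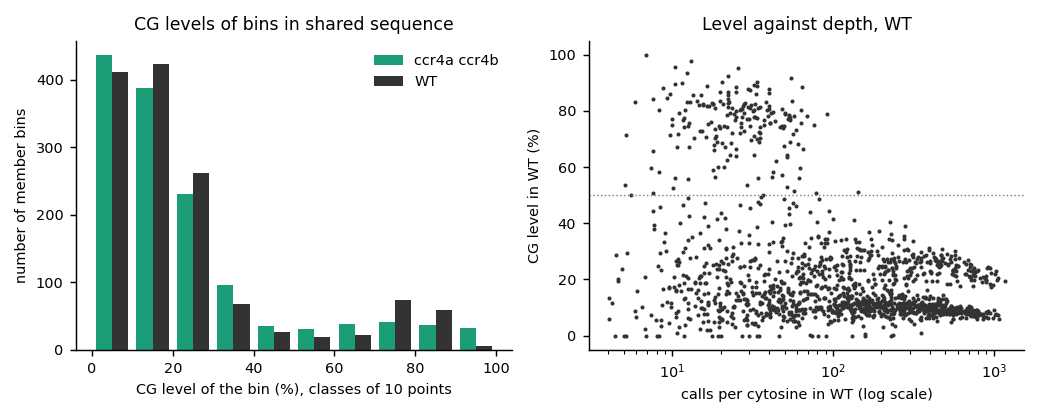
Left, number of member bins in shared sequence per class of CG level in ccr4a ccr4b and WT, 10 points per class. Right, WT CG level in percent of each bin against its calls per cytosine on a log scale, with a dotted line at 50%. The bins above the line reach at most moderate depth, while bins below it extend to the deepest. Bins above it with at least 4 CG cytosines have a median of 24.9 calls per cytosine.

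The 177 bins of 50% or more had WT levels close to those of the flanks. Their CG level was 2.01% in ccr4a ccr4b ddm1 rdr2, 2.38% in ddm1 rdr2, 73.8% in ccr4a ccr4b and 75.1% in WT. Their depth was 0.725, 0.696, 0.884 and 0.917 times that of like arm bins, whereas the 1189 other bins had 7.37, 8.22, 9.50 and 7.48 times that depth. Bins of the pericentromere of chromosome 2 that passed the same limit of 4 calls had 1.30, 1.35, 2.10 and 1.76 times. In WT the CHG and CHH levels of the 177 bins were 36.5% and 9.56%, against 31.1% and 8.36% in the left flank and 41.8% and 9.75% in the right flank. The longest run of such bins, 7 bins at chr2:3682501-3683200, had CG levels of 3.10%, 3.11%, 69.4% and 78.8% in the same order of libraries. The longest run under 50%, 29 bins at chr2:3531401-3534300, had CG levels of 0.116%, 0.293%, 10.5% and 8.25% at 301, 405, 388 and 342 calls per cytosine.

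Calls at the corresponding position of the contig followed the opposite pattern. For 6215 of the 8117 cytosines of the 177 methylated bins the matching cytosine of the contig could be found. It had at least 4 calls at 81.8% of positions in ccr4a ccr4b ddm1 rdr2, 81.3% in ddm1 rdr2, 80.9% in ccr4a ccr4b and 81.2% in WT, with 190, 216, 183 and 179 calls per cytosine. For 45192 of the 55090 cytosines of the other bins, the contig had at least 4 calls at 17.8%, 18.1%, 17.5% and 17.4%, with 14.2, 15.9, 14.9 and 13.7 calls per cytosine. Deep coverage thus lay on chromosome 2 in one class of bins and on the contig in the other. At the contig positions that match the methylated bins, the CG level was 0.0672%, 0.0959%, 1.39% and 1.75%, while the chloroplast, taken as unmethylated, had CG levels of 0.0881%, 0.0975%, 0.108% and 0.0861%.

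**Figure D3:**
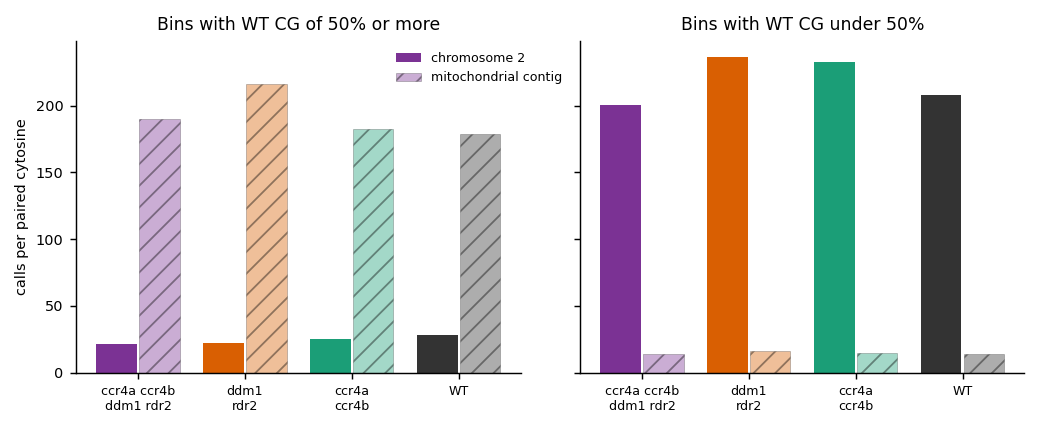
Calls per cytosine on chromosome 2 (plain bars) and at the matching cytosine of the mitochondrial contig (hatched bars) for bins with a WT CG level of 50% or more (left) and under 50% (right), in the 4 libraries. In WT the contig has 179 and chromosome 2 28.2 calls per cytosine on the left, and 13.7 and 208 on the right.

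Over the whole contig the CG level was 0.248% in ccr4a ccr4b ddm1 rdr2, 0.299% in ddm1 rdr2, 11.4% in ccr4a ccr4b and 10.7% in WT, and between 81.2% and 81.8% of its CG cytosines had no call. So the contig carried methylated calls as well, in the same libraries as the block. Of 123056 cytosine pairs between block and contig, 13.3% were covered on both copies in WT, 37.5% on chromosome 2 only, 1.94% on the contig only and 47.3% on neither. Where both were covered, the WT CG level was 22.4% on chromosome 2 and 4.07% on the contig.

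Along the block, the bins under 50% stood at more than 1 level. In 5 kb windows their median CG level in WT lay between 18.7% and 28.7% in 13 windows at chr2:3375001-3445000, and between 20.8% and 29.9% in 8 windows at chr2:3545001-3590000. These stretches were picked after the WT values were seen, and the first begins to the left of the block. In ccr4a ccr4b, which was not used to pick them, the lowest window medians were 19.8% and 19.7%. The ranges overlapped with the rest, where the highest of 45 window medians was 23.4% in ccr4a ccr4b and 21.7% in WT. Pooled over all bins under 50% elsewhere in the shared stretch, the CG level was 9.49% in ccr4a ccr4b and 9.83% in WT, against 24.2% and 23.2% in the first stretch and 21.7% and 22.7% in the second.

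The step was in the methylated calls. A CG cytosine in WT had 64.8 methylated calls in the first stretch, 81.4 in the second and 24.4 elsewhere, while unmethylated calls numbered 214, 278 and 224. In ddm1 rdr2, the same bins had CG levels of 0.653%, 0.599% and 0.295%, in the order first stretch, second stretch and elsewhere, while ccr4a ccr4b ddm1 rdr2 had 0.529%, 0.508% and 0.275%. On chromosome 2 the stretches are 100 kb apart, but on the contig they follow each other. Ordered by contig position in steps of 20 kb, the median CG level in WT was between 22.6% and 27.1% in each step from 220001 to 340000, and between 8.77% and 15.7% in every other step. The 155 bins of shared sequence to the left of the block, part of which lies in the first stretch, had CG levels of 0.660% in ccr4a ccr4b ddm1 rdr2, 0.860% in ddm1 rdr2, 29.5% in ccr4a ccr4b and 28.3% in WT.

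Of the windows of 10 kb within the shared sequence, 30 held at least 20 member bins, and only these are counted here and below. They had CG levels of 7.25% to 28.5% in ccr4a ccr4b and 7.77% to 28.4% in WT. Their order was alike in both (Pearson's r 0.94, Spearman's rho 0.93 over 30 windows, which share libraries and reads, as a description). Their CG level did not follow their depth in WT, with r 0.03 and rho -0.12 over the same windows. Depth in these windows ranged from 60.4 to 664 calls per cytosine in ccr4a ccr4b and from 105 to 446 in WT, and the libraries were not deep in the same places. The window at chr2:3610001-3620000 had 664 calls in ccr4a ccr4b and 365 in WT, and the one at chr2:3570001-3580000 had 95.7 in ccr4a ccr4b and 175 in WT. Depth depended on GC content more steeply in ccr4a ccr4b outside the block as well. Arm bins of 35% to 40% GC had 3.82 calls per cytosine in ccr4a ccr4b and 8.81 in WT. Those of 55% to 60% GC had 96.6 and 69.2. How far this shaped the depths and pooled levels of the block was not tested.

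**Figure D4:**
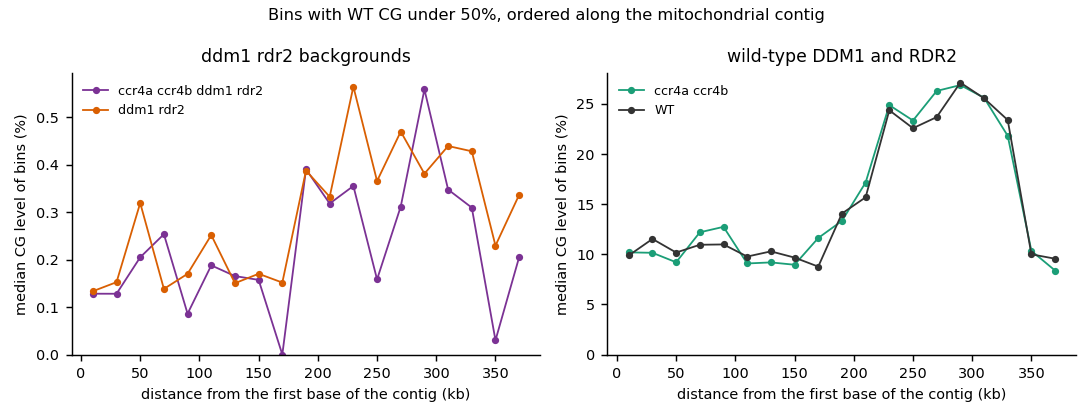
Median CG level in percent of the bins with a WT CG level under 50%, in 20 kb steps ordered by the matching position on the mitochondrial contig, for ccr4a ccr4b ddm1 rdr2 and ddm1 rdr2 (left) and ccr4a ccr4b and WT (right, another scale). Steps from contig position 220001 to 340000 stand at 22.6% to 27.1% in WT, and the other steps at 8.77% to 15.7%.

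**Figure D5:**
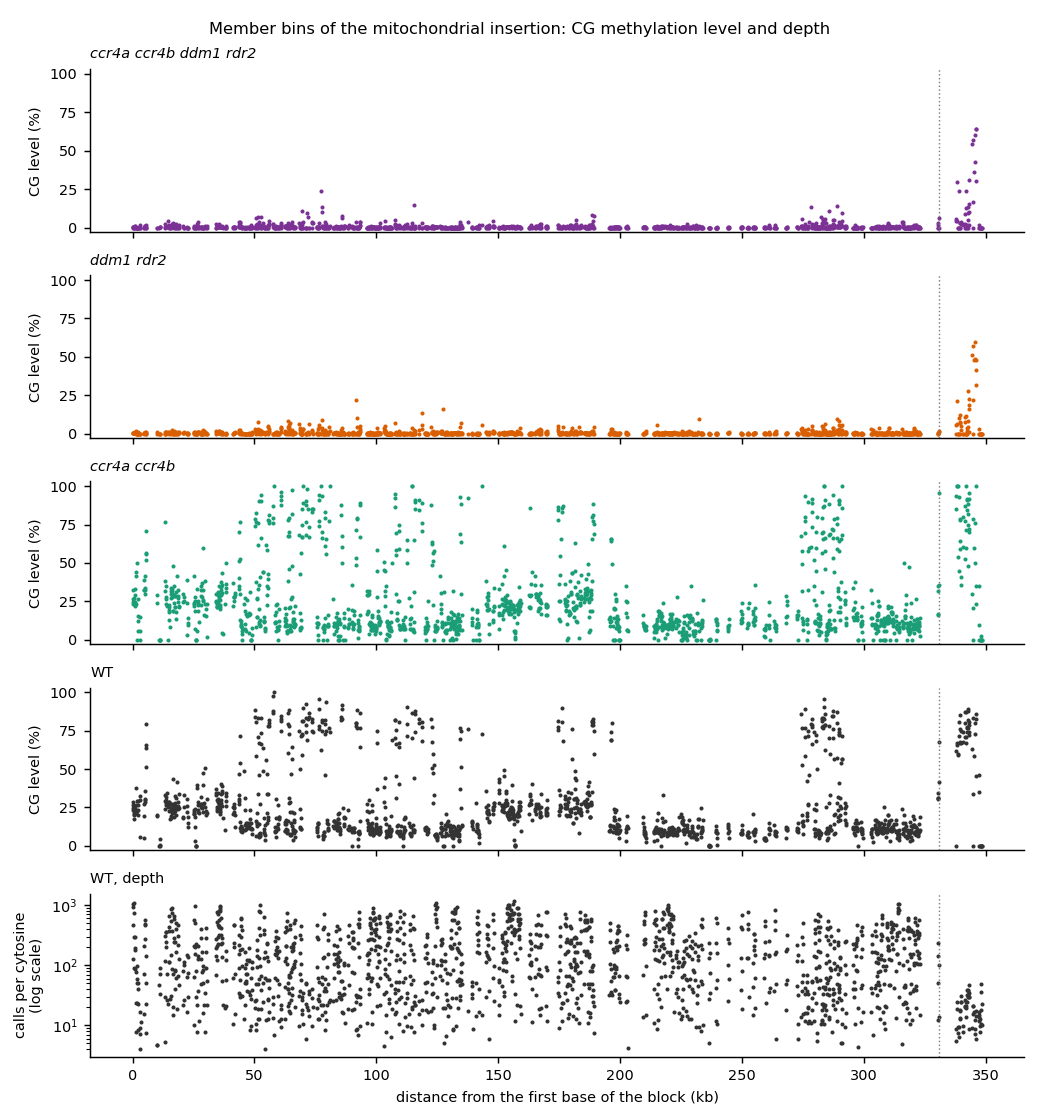
CG level in percent of each member bin with CG calls, by distance in kb from the first base of the block, in ccr4a ccr4b ddm1 rdr2, ddm1 rdr2, ccr4a ccr4b and WT from top to bottom, and the calls per cytosine in WT on a log scale (last panel). The dotted line marks the last base shared with the contig. In ccr4a ccr4b and WT 1 band of bins lies low, rises in the 2 stretches described above and is joined by a sparser band above 50%. In both genotypes with ddm1 rdr2, the highest bins before the line are at 23.8% and 22.0%.

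The first comparison sets ddm1 rdr2 against WT, which asks what methylation of the insertion remains without the remodeller and the small RNA pathway. Nearly none was measured. The CG level was 0.444% in ddm1 rdr2 and 15.5% in WT, a difference of -15.0 points (95% interval -15.1 to -15.0). The CHG difference was -7.03 points (-7.06 to -6.99). The CHH difference was -1.84 points (-1.85 to -1.83). Levels were lower in ddm1 rdr2 in all 30 windows of 10 kb within the shared sequence that held at least 20 member bins, in each context. The CG difference in single windows ran from -27.8 to -7.49 points. The window at chr2:3650001-3660000 had the lowest WT CG level, 7.77%, and the window at chr2:3550001-3560000 the highest WT depth, 446 calls per cytosine, at a CG level of 20.9%.

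The ratio of the ddm1 rdr2 level to the WT level could be read without regard to organelle calls under certain conditions. Both libraries would have to hold an equal share of these calls, all of them unmethylated, which was not tested. The depths did not move alike. Bins under 50% had 8.22 times the depth of like arm bins in ddm1 rdr2 and 7.48 times in WT. For bins of 50% or more these values were 0.696 and 0.917, and for the pericentromere 1.35 and 1.76. An unequal share would change the ratios of the members. The ratio was 0.0287 for CG over all members, 0.0282 in bins under 50% and 0.0317 in bins of 50% or more. Outside, it was 0.0648 in the left flank, 0.117 in the right flank and 0.142 in the pericentromere of chromosome 2. For CHH the ratios were 0.134 over all members, 0.0704 in the left flank, 0.209 in the right flank and 0.197 in the pericentromere. As measured, the CG ratio of the insertion was the smallest of these regions, while its CHH ratio lay between those of the flanks. The CHH level in ddm1 rdr2 was 0.284% over all members, 0.589% in the left flank and 2.03% in the right flank. The chloroplast stood at 0.0844%, and the part of such background in the ratios was not tested. With 1 library each, whether the ratios of the insertion differ from those of its surroundings could not be tested.

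Bin by bin, a two-sided Fisher's exact test on summed calls with Benjamini-Hochberg adjustment over all nuclear bins was used, which compares the 2 libraries and not the genotypes. Calls needed an adjusted p below 0.01 and a change of 40 points or more in CG, 20 in CHG and 10 in CHH. For ddm1 rdr2 against WT, 232 of 1452 CG bins tested in the block were called, all lower. Of all nuclear bins, 25.3% were called in CG, 24.6% lower and 0.695% higher. In CHG 226 of 1510 were called, all lower, against 16.5% of all nuclear bins, 16.3% lower and 0.177% higher. In CHH 85 of 1914 were called lower and 1 higher, against 9.56% of all nuclear bins, 8.84% lower and 0.72% higher. The shares in the block were below the nuclear ones in each context, but above them without cytosines over 3 times the median coverage of covered nuclear cytosines. In the deep block this limit left 412 bins to test in CG, 450 in CHG and 898 in CHH, so another set of bins was compared. The shares were then 38.6% in the block and 19.7% over all nuclear bins in CG, 32.0% and 10.1% in CHG, and 9.02% and 7.34% in CHH. Tested bins of the block include bins that are not members. A bin under 40% in WT cannot fall by 40 points, and of 1164 tested bins with a WT CG level under 50%, 20 were called in CG. In CHH, 3 of the 1189 bins under 50% and 54 of the 177 others were called lower, but the classes were cut on the WT values and are given as a description.

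The runs with the most called losses had WT levels well above those of the members pooled. The CG run with the most called bins held 8 bins at chr2:3588301-3589200, across the junction of the segments that run opposite to and along the contig, with 1.51% in ddm1 rdr2 and 78.6% in WT (largest adjusted p 1.24e-14, Fisher's exact test). The longest CHG run, 16 bins at chr2:3741001-3742900, lay beyond the shared sequence, at 4.55% in ddm1 rdr2 and 41.6% in WT (largest adjusted p 0.00199, Fisher's exact test). The longest CHH run, 4 bins at chr2:3480601-3481000, was at 2.06% in ddm1 rdr2 and 15.4% in WT (largest adjusted p 5.28e-06, Fisher's exact test).

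The second comparison sets ccr4a ccr4b against WT, and so concerns loss of the deadenylases alone. CHH methylation was lower: 1.52% in ccr4a ccr4b and 2.12% in WT, a difference of -0.604 points (-0.616 to -0.593), with lower levels in 29 of 30 windows. The ratio of levels was 0.716 over all members and 0.759 in the bins of 50% or more, against 0.750 in the left flank, 0.793 in the right flank and 0.807 in the pericentromere, so CHH was lower in these surroundings too. The pooled level was not lower in the arms of chromosome 2, at 3.61% in ccr4a ccr4b and 3.49% in WT, a ratio of 1.03. There, CG and CHG were higher too, at 37.3% and 15.1% in ccr4a ccr4b and 29.7% and 10.2% in WT. The pooled CHH level alone therefore cannot tell whether CHH in the arms was spared. Over all members the CG difference was -0.789 points (-0.844 to -0.733) and that of CHG -0.170 points (-0.213 to -0.127). Both became positive, at 0.631 and 0.919 points, without the deepest member bins. CHG was also positive, at 0.635 points, when bins were weighted equally. CG was lower in 16 windows and higher in 14, and CHG was lower in 10 and higher in 20.

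Few bins were called. In CG 11 of 1359 tested bins of the block passed the same rule, 8 with a higher and 3 with a lower level in ccr4a ccr4b, against 2.2% of all nuclear bins, 0.733% higher and 1.46% lower. In CHG 35 of 1411 passed, 25 higher and 10 lower, against 1.69% of all nuclear bins, 0.897% higher and 0.793% lower. In CHH 28 of 1823 passed, 8 higher and 20 lower, against 3.28% of all nuclear bins, 0.822% higher and 2.45% lower. The order of these shares depended on the setting. In CG the block was at 0.809%, but without cytosines above 3 times the median coverage it was at 4.97% and all nuclear bins at 3.01%. That limit left 302 bins of the block to test. In CHG it was at 2.48%, but with 300 bp bins at 1.39%, against 1.52% of all nuclear bins. The CHH run with the most called bins, 3 bins at chr2:3682401-3682800, overlapped the longest methylated run and was at 6.72% in ccr4a ccr4b and 23.3% in WT (largest adjusted p 0.000113, Fisher's exact test). The CHG run with the most called bins, 2 bins at chr2:3465301-3465500, was at 45% in ccr4a ccr4b and 10.5% in WT (largest adjusted p 0.000729, Fisher's exact test). The CG bin with the largest called difference, chr2:3737501-3737600, lay beyond the shared sequence, at 85% in ccr4a ccr4b and 0% in WT (adjusted p 2.07e-15, Fisher's exact test). The longest methylated run, chr2:3682501-3683200, had CHH levels of 3.60% in ccr4a ccr4b and 11.7% in WT.

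CHH was lower in the trinucleotides of high and of low level. CAA and CTA, the contexts with the highest CHH levels, were at 4.76% and 4.44% in ccr4a ccr4b and at 6.05% and 5.67% in WT. CCC, the lowest, was at 0.121% in ccr4a ccr4b and 0.163% in WT. The CHG trinucleotides differed less, with CAG at 8.18% in ccr4a ccr4b and 8.19% in WT, CTG at 8.55% in ccr4a ccr4b and 8.51% in WT, and CCG at 4.94% in ccr4a ccr4b and 5.18% in WT. The chloroplast CHH level was 0.102% in ccr4a ccr4b and 0.0782% in WT, so it was higher in the library with the lower CHH level in the block.

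The third comparison sets ccr4a ccr4b ddm1 rdr2 against ddm1 rdr2, and asks whether the deadenylases matter once most methylation is gone. Levels were lower still, by fractions of a point. The CG level of 0.407% in ccr4a ccr4b ddm1 rdr2, against 0.444% in ddm1 rdr2, gave a difference of -0.0370 points (-0.0474 to -0.0266). The CHG difference was -0.0925 points (-0.102 to -0.0828). That of CHH was -0.119 points (-0.123 to -0.115). CHH was lower in 29 of 30 windows, CHG in 27 and CG in 18. In the bins of 50% or more in WT, CHH stood at 0.679% in ccr4a ccr4b ddm1 rdr2, against 1.22% in ddm1 rdr2. CAA was at 0.414% in ccr4a ccr4b ddm1 rdr2, against 0.747% in ddm1 rdr2, over all members. The chloroplast CHH level was 0.0737% in ccr4a ccr4b ddm1 rdr2, against 0.0844% in ddm1 rdr2, and its part in the difference was not tested.

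As a ratio, CHH in ccr4a ccr4b ddm1 rdr2 was 0.580 of that in ddm1 rdr2 over all members, against 0.834 in the left flank, 0.608 in the right flank and 0.828 in the pericentromere. Of the tested bins of the block 1 of 1475 was called lower in CG, against 1.04% of all nuclear bins, 0.508% higher and 0.53% lower. In CHG 0 of 1544 were called, against 0.685% of all nuclear bins, 0.276% higher and 0.409% lower. In CHH 1 of 1943 was called lower, against 1.17% of all nuclear bins, 0.181% higher and 0.991% lower. The CG bin, chr2:3735201-3735300, lay beyond the shared sequence, at 0% in ccr4a ccr4b ddm1 rdr2 against 56.2% in ddm1 rdr2 (adjusted p 8.44e-10, Fisher's exact test). The CHH bin, chr2:3615001-3615100, was at 0% against 10.6% in ddm1 rdr2 (adjusted p 1.18e-05, Fisher's exact test). A bin near 0 cannot fall by the required difference, but it can rise by it.

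The 61 member bins past the last shared base formed a contrast within the block. Their depth was 0.978 times that of like arm bins in ccr4a ccr4b ddm1 rdr2, 0.972 in ddm1 rdr2, 1.05 in ccr4a ccr4b and 1.11 in WT. That was below the right flank, whose bins passed the same limit and had 1.37, 1.43, 2.13 and 1.85 times. Their CG level was 9.67%, 8.80%, 45.7% and 51.1% in the same order. The ratio of ddm1 rdr2 to WT in CG was 0.172, against 0.0287 over all members. The window at chr2:3740001-3750000, which had the highest WT CG level of the block (48.5%) and the lowest WT depth (21.4 calls per cytosine), shared no words with the contig.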

How the data were processed

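Genomic DNA of 4 leaf libraries was assayed by enzymatic methyl-seq, in which unmethylated cytosines are converted and methylated ones are kept. The authors deposited counts of methylated and unmethylated calls per cytosine and strand. Bismark 0.22.3 is named in the submitters' processing notes, and the reference ColCEN only in the names of the deposited files. Multiple mapping and duplicate removal are not given in the sources used here. All files list the same 47872605 cytosines, and none has 1 or 2 calls.

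Levels are methylated calls over all calls, with Wilson 95% intervals and Newcombe 95% intervals of differences. Reads were amplified by PCR and no molecular identifiers are named, so they are not counted as separate molecules and the intervals cover counting error only. Contig letters came from the listed trinucleotides, and words of 50 letters were matched on both strands. The Fisher's exact test was run in 100 bp bins holding 4 or more cytosines that had at least 4 calls in each of the libraries compared, and was tested on simulated data. Python 3.11.15, NumPy 2.4.6, SciPy 1.17.1, numba 0.67.0 and Matplotlib 3.10.9 were used.

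Named windows were those with the highest and lowest WT CG level and depth among windows with at least 20 member bins. Named runs were those with the most called bins per comparison and context. Bins under and above 50% were split on the WT level, and the stretches of higher level were picked after WT values were seen, as runs of at least 3 windows of 5 kb with a median of at least 18%. The members and lists were chosen with earlier results of these data known. The alternatives tried were stricter call minimums, equal weights, depth limits, other bin and word lengths and another extent.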

Additional observations from a re-analysis of the deposited data

Results flagged for a closer look

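In the 177 bins with a WT CG level of 50% or more, the CHG difference of the ccr4a ccr4b mutations had opposite signs in the 2 backgrounds. It was -0.431 points for ccr4a ccr4b ddm1 rdr2 (1.48%) against ddm1 rdr2 (1.91%), and 1.17 points for ccr4a ccr4b (37.7%) against WT (36.5%). CHG had the same pair of signs in the pericentromere of chromosome 2 (-0.188 and 1.57 points), the right flank (-0.600 and 3.08) and the shared sequence left of the block (-0.148 and 1.08), but not in the left flank (-0.264 and -0.858). In the 177 bins, the counting intervals of both differences lay on 1 side of 0, but with 1 library per genotype the difference between the backgrounds was not tested.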

How the results depend on the processing

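Of 45 recomputed level differences, 42 kept their direction. Against WT, the ccr4a ccr4b differences reversed to 0.631 points in CG and 0.919 in CHG without the member bins above 3 times the median depth, and to 0.635 in CHG with equal weights for bins; the cause was not tested. The equal weights gave ddm1 rdr2 against WT -23.7 (CG), -10.9 (CHG) and -2.72 (CHH), ccr4a ccr4b against WT -0.0398 (CG) and -0.700 (CHH), and ccr4a ccr4b ddm1 rdr2 against ddm1 rdr2 -0.142 (CHG) and -0.204 (CHH). Triplets below are in the order CG, CHG and CHH. Without the deep bins ddm1 rdr2 against WT was -20.3, -10.2 and -2.45, and ccr4a ccr4b ddm1 rdr2 against ddm1 rdr2 was -0.0591, -0.126 and -0.150. A minimum of 10 calls gave -14.8, -6.90 and -1.81 for ddm1 rdr2 against WT and -0.674, -0.108 and -0.584 for ccr4a ccr4b against WT. The extent at chr2:3361001-3730000 gave -15.9, -7.32 and -1.92 for ddm1 rdr2 against WT, -0.666, -0.0728 and -0.616 for ccr4a ccr4b against WT, and -0.0547 in CG for ccr4a ccr4b ddm1 rdr2 against ddm1 rdr2. With 300 bp bins, of which there are fewer, called bins numbered 124, 113 and 26 for ddm1 rdr2 against WT, 4, 9 and 7 for ccr4a ccr4b against WT, and 0 (CG) and 2 (CHH) for ccr4a ccr4b ddm1 rdr2 against ddm1 rdr2. With at least 10 calls at each cytosine, 3 CG and 22 CHG bins were called for ccr4a ccr4b against WT, and 0 CG and 2 CHH bins for ccr4a ccr4b ddm1 rdr2 against ddm1 rdr2. Leaving out cytosines above 3 times the median coverage left 144 called CHG bins, of 450 tested in the block, for ddm1 rdr2 against WT. Words of 30 and 100 letters matched 93.4% and 72.3% of the members. No paired analysis was possible because each genotype had 1 library. Calls were not assigned to the nucleus or the organelle, which cannot be done where the copies do not differ, and no annotation of genes was used here.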
